A study of Mus musculus with 5 samples.

Results

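Map1a, Map1b, Map2, Map4, Mapt and Dcx encode the classical microtubule-associated proteins of neurites, and their transcripts were followed here through an in vitro RNA-binding experiment on mouse brain. Every probe set annotated to 1 of these 6 gene symbols was taken, which gave 22 of the 45101 probe sets on the array. The experiment used MA-Brent-1, an RNA-binding protein related to the mRNA export factors REF and Aly, which a pair of sample titles call REFP2. Brain RNA was bound to the deiminated protein on 2 arrays, called D1 and D2 here, and to the non-deiminated protein on 2 arrays, called N1 and N2. The remaining array held the starting brain RNA that had gone through no binding step, called input here. Deimination converts protein-bound arginine to citrulline. The label of N2 names it a biological repeat, and whether the other repeats came from separate animals or binding reactions is not stated in the labels, so all p-values reflect just the spread among these arrays, and that spread may be technical. Strain, age, the source of the protein and the extraction are not given in the sources used here. D1 and N2 carry MA-Brent-1 in their titles and D2 and N1 carry REFP2.

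Microtubule-associated proteins bind along the microtubule lattice and set its stability, its spacing and the access of motors. In neurons Map2 protein is concentrated in dendrites and cell bodies and tau, the product of Mapt, in axons. Map1b is abundant in growing axons and Map1a in mature neurons, both cut into a heavy and a light chain, while Map4 is found in many cell types and doublecortin (Dcx) marks migrating and newly formed neurons. REF/Aly proteins join spliced mRNAs in the nucleus and hand them to the export receptor.

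The values are MAS5 signals, an estimate of brightness for each probe set on a linear scale in arbitrary units, with every array scaled to a common trimmed mean. The median signal was 29.9 to 41.5 on the bound arrays and 102 on the input array, and 16 or 17 of the 22 probe sets lay above their array's median. Hybridisation controls, transcripts added in fixed amount, averaged 10.08 to 13.04 log2 units on the bound arrays and 17.04 on the input array. They were at 10.59 on D1 and 10.08 on N1 against 12.60 on D2 and 13.04 on N2, a split across the proteins. Median signals followed it, at 29.9 and 30.5 against 37.6 and 41.5. The part of this split in the comparison between the proteins was not tested. The beta-actin 3' to 5' ratio was 29.8 to 55.6 on the bound arrays and 234 on the input array, and that of Gapdh was 17.4 to 31.9 against 2.71. Array level and RNA integrity measures thus differed between bound and input, with beta-actin and Gapdh in opposite directions. The beta-actin 5' signal was 188 to 278 on the bound arrays and only 16.7 on the input array. The part of these measures in every difference from input below was not tested. All 10 neuronal markers were measured, and their median percentile was 96.6 to 97.2 on the bound arrays and 88.1 on the input array. Their summed signal was 19409 on D1, 21415 on D2, 19070 on N1, 20858 on N2 and 5390.4 on the input array, and its part in the results was also not tested; 1 of the markers, Stmn2, is also in the stathmin list used further on. The median percentiles of other marker lists were 97.5 to 98.1 bound against 96.4 input for astrocytes, 95 to 96.6 against 88 for oligodendrocytes and 77.5 to 83.2 against 67.0 for microglia. They were 43.1 to 58.8 against 61.9 for endothelial cells, 69.7 to 72.8 against 84.1 for choroid plexus and 54.7 to 59.2 against 55.7 for blood. The choroid plexus sum went the other way, at 13199 on D1, 35250 on D2, 10931 on N1, 40877 on N2 and 8594.2 on the input array. That of oligodendrocytes was 29936, 57155, 23759, 69067 and 48922 in the same order. Both sums were lower on D1 and N1 than on D2 and N2. The bound RNA had gone through a binding step and the input RNA had not. A difference in these percentiles or sums can therefore not be read as one in cell numbers.

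Mapt gave the widest difference from input among the member probe sets past the filter on low signal. Its probe set 1424719_a_at, whose suffix marks probes shared by alternative transcripts of a gene, read 805 and 708 on D1 and D2, 936 and 859.5 on N1 and N2, and 16.7 on the input array. All 4 bound arrays were high, the input array was low, and the deiminated arrays lay just under the non-deiminated ones without overlap. On the log2(signal + 4.18) scale used throughout, the difference from input was 5.18 ± 0.38 (SE, 2 arrays against 1) for the deiminated protein, or 36.3-fold, with a limma adjusted p of 1.48e-06. For the non-deiminated protein it was 5.43 ± 0.38, or 43.0-fold, with an adjusted p of 1.28e-06. The lone input array is assumed in all such tests to vary like the bound arrays. Its value of 4.39 on this scale lay under the filter limit of 4.89, so the probe set entered the test only through its bound signals and had to be higher in them. The percentile of this probe set within its array was 93.1 to 94.4 on the bound arrays and 18.1 on the input array.

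A pair of further Mapt probe sets shared the direction at a smaller size. Probe set 1424718_at read 913 on D1, 869 on D2, 1231 on N1, 976 on N2 and 349.5 on the input array. Probe set 1455028_at read 779.9 and 1155 deiminated, 1043 and 768 non-deiminated, and 356 on the input array. In both, every bound array was above the input array. The first was 1.34 ± 0.37 higher than input with the deiminated protein (limma adjusted p = 0.0105) and 1.64 ± 0.37 higher with the non-deiminated protein (adjusted p = 0.00391). The second was 1.40 ± 0.40 (adjusted p = 0.0121) and 1.32 ± 0.40 higher (adjusted p = 0.0169). These 2 calls rested on the scaling between arrays: after cyclic loess they were -0.02 and 0.30 for 1424718_at and 0.06 and -0.000248 for 1455028_at, with limma adjusted p of 0.961, 0.492, 0.916 and 1. Without a trend in the variance the deiminated call on 1424718_at and both calls on 1455028_at were lost, with limma adjusted p of 0.0571, 0.0645 and 0.0777. Without D1 the deiminated call on 1424718_at was lost, at 1.30, and without D2 that on 1455028_at, at 1.12. Leaving out a bound array leaves its group a single array. The p-values of all such fits, here and below, therefore do not measure the spread within that group.

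The fourth Mapt probe set did not share the direction. Probe set 1417885_at read 78.6 and 123 deiminated, 169.8 and 75.1 non-deiminated and 148 on the input array, which lay within the bound range. Its differences from input were -0.57 and -0.37 and did not pass (limma adjusted p = 0.428 and 0.612). Probe sets of 1 gene share their transcript and are not replicates, and the stretch of transcript that each one reads was not analysed here.

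Map1b, which encodes a microtubule-binding protein of growing axons, was called in opposite directions by its probe sets. Probe set 1450397_at read 363 on both D1 and D2, 328 on N1, 555 on N2 and 22.8 on the input array. The bound arrays were all high and the input array low. The difference from input was 3.76 ± 0.45 with the deiminated protein (limma adjusted p = 4.08e-05) and 3.99 ± 0.45 with the non-deiminated protein (adjusted p = 2.61e-05). Here too the input value, 4.76 on the log2 scale, was under the filter limit of 4.89. Its percentile was 86.4 to 91.8 on the bound arrays and 23.9 on the input array.

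The other Map1b probe sets were high on the input array alone. Probe set 1421850_at read 10.7 and 22.6 deiminated, 8.70 and 19.2 non-deiminated, and 248 on the input array. Its difference from input was -3.66 ± 0.94 (limma adjusted p = 0.00727) and -3.86 ± 0.94 (adjusted p = 0.00587), and it reached the filter only through the input array. After cyclic loess the differences were -1.86 (adjusted p = 0.0946) and -2.14 (adjusted p = 0.0620), and median centring took the deiminated one to -2.17 (adjusted p = 0.0561). Probe set 1421851_at, under the filter, read 11.1 and 10.5 deiminated, 6.59 and 5.69 non-deiminated and 117 on the input array. With no filter it was lower than input by -3.02 (limma adjusted p = 0.0226) and -3.56 (adjusted p = 0.0117). The differences of the Map1b probe sets past the filter therefore spanned 7.43 log2 units with the deiminated protein and 7.86 with the non-deiminated protein. The median over them was 0.0505 and 0.0664 higher than input, with limma adjusted p of 0.943 and 0.923.

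Map1a, the relative of Map1b found in mature neurons, had no probe set past the threshold on the deposited scale. Probe set 1460566_at read 583 and 592 deiminated, 666 and 699.8 non-deiminated and 736 on the input array. The order was input, non-deiminated, deiminated with no overlap, yet no neighbouring groups differed beyond the error: -0.11 from input for the non-deiminated protein (limma adjusted p = 0.819), -0.22 between the bound groups and -0.32 ± 0.36 from input for the deiminated protein (adjusted p = 0.467). Its direction against input changed with the scaling. Quantile normalisation gave -1.34 and -1.13 with the deiminated and the non-deiminated protein (limma adjusted p = 0.00477 and 0.0113), and cyclic loess -1.62 and -1.38 (adjusted p = 0.00557 and 0.0120), all called lower. Median centring instead gave 1.31 for the non-deiminated protein (adjusted p = 0.0479). The second probe set, 1455779_at, read 133 and 161 deiminated, 133 and 206 non-deiminated and 304 on the input array. Every bound array lay below the input array, and the differences of -1.04 ± 0.46 and -0.86 ± 0.46 missed the threshold (adjusted p = 0.0746 and 0.132). After cyclic loess the deiminated one was -1.38 (adjusted p = 0.0367). Without N1 or N2 the deiminated difference stayed at -1.04, and without N2 the non-deiminated one, resting on N1 alone, was -1.17.

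Map2, whose mRNA is itself known to travel into dendrites, had 1 probe set past the filter that was not called and others that were called lower in bound RNA. Probe set 1434194_at read 1226 and 1456 deiminated, 1184 and 919 non-deiminated and 882 on the input array. The deiminated arrays were highest, the non-deiminated next without overlap, and the input array lowest. Differences from input were 0.60 ± 0.38 (limma adjusted p = 0.202) and 0.24 ± 0.38 (adjusted p = 0.610). No direction held across scalings for this probe set. Quantile normalisation gave -0.61 and -0.90 and cyclic loess -0.82 and -1.14, the non-deiminated value passing in both (adjusted p = 0.0339 and 0.0288). Median centring gave 2.09 (adjusted p = 0.00568) and 1.66 (adjusted p = 0.0192).

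Probe set 1421328_at of Map2 read 53.2 and 65.9 deiminated, 57.2 and 46.4 non-deiminated and 244 on the input array. It was lower than input by -1.97 ± 0.59 (limma adjusted p = 0.0151) and -2.16 ± 0.59 (adjusted p = 0.0103), and its percentile was 52.9 to 62.0 bound against 78.7 input. The deiminated call was lost without D1 (-1.82, adjusted p = 0.0914), after quantile normalisation (-1.26, adjusted p = 0.0521) and after cyclic loess (-1.39, adjusted p = 0.0633). Both calls were lost after median centring, at -0.47 and -0.74 (adjusted p = 0.502 and 0.296). Probe set 1440699_at read 42.2 and 51.3 deiminated, 89.4 and 49.8 non-deiminated and 159 on the input array. It passed with the deiminated protein (-1.68 ± 0.63, adjusted p = 0.0406) and not with the non-deiminated protein (-1.20 ± 0.63, adjusted p = 0.128), while the difference between the bound groups was -0.49 ± 0.52 and was not called. That deiminated call was lost without D1 (-1.55, adjusted p = 0.163) or D2 (-1.81, adjusted p = 0.0916). With a block for the protein's name in the titles the same difference had an adjusted p of 0.070, and with no filter 0.0516. It was -0.37 after quantile normalisation, -1.01 after cyclic loess and -0.19 after median centring, with limma adjusted p of 0.601, 0.201 and 0.819. Under the filter, 1421327_at read 19.1 and 7.24 deiminated, 12.1 and 2.62 non-deiminated and 17.0 on the input array, with overlapping groups.

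Map4, the member found outside neurons as well, spread over 5 probe sets in 3 patterns. Probe set 1416091_at read 949.7 and 1036 deiminated, 920.5 and 856 non-deiminated and 224 on the input array, so that bound arrays were high and lay close together. It was higher than input by 2.13 ± 0.36 (limma adjusted p = 0.000639) and 1.97 ± 0.36 (adjusted p = 0.00114), and after cyclic loess by 0.80 (adjusted p = 0.0868) and 0.66 (adjusted p = 0.144). Probe set 1439467_at went the other way, with 26.6 and 35.1 deiminated, 29.9 and 24.3 non-deiminated and 172 on the input array. Its differences were -2.34 ± 0.75 (adjusted p = 0.0208) and -2.50 ± 0.75 (adjusted p = 0.0161). The deiminated call was lost without D1 (-2.16, adjusted p = 0.107) or D2 (-2.51, adjusted p = 0.0564), and neither comparison was called after quantile normalisation, cyclic loess or median centring.

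The remaining 3 Map4 probe sets did not pass on the deposited scale. Probe set 1437855_at read 1195 and 943 deiminated, 974 and 2025 non-deiminated and 805 on the input array. N2 stood apart from the other bound arrays there. The non-deiminated difference was 0.80 (limma adjusted p = 0.153). Without N1 it rested on N2 alone and was 1.33. Probe set 1416092_a_at read 352 and 310.4 deiminated, 423 and 356 non-deiminated and 246 on the input array, with differences of 0.42 and 0.65. Every bound array was above the input array there. After median centring both were called higher in both comparisons, 1437855_at at 1.89 and 2.22 and 1416092_a_at at 1.92 and 2.07. No direction held across the alternatives for either. The lowest values were -1.02 and -0.58 for 1437855_at and -0.49 and -0.26 for 1416092_a_at, none of them called. Quantile normalisation also gave a call for 1416092_a_at with the non-deiminated protein (1.03, limma adjusted p = 0.0256). Probe set 1443702_at read 93.0 and 126 deiminated, 59.8 and 127 non-deiminated and 124 on the input array, which lay within the bound range, with differences of -0.19 and -0.49.

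Dcx, the marker of young neurons, had no probe set past the threshold with the filter in place. Probe set 1418139_at read 114 and 283 deiminated, 115 and 109 non-deiminated and 78.7 on the input array. D2 alone was high, and the other bound arrays lay within a few units of each other. The difference from input was 1.15 ± 0.57 with the deiminated protein (limma adjusted p = 0.105) and 0.49 ± 0.57 with the non-deiminated protein (adjusted p = 0.490). Without D1 the deiminated difference rested on D2 alone and was 1.79. Leaving out N2 kept it at 1.15 and changed only the estimate of spread. Probe set 1418141_at read 50.3 and 84.5 deiminated, 71.4 and 79.3 non-deiminated and 37.8 on the input array, with differences of 0.73 and 0.92 that did not pass. Both Dcx probe sets were called higher under other scalings. Quantile normalisation gave 2.42 and 1.77 for 1418139_at and 1.86 and 1.98 for 1418141_at, with limma adjusted p of 0.00284, 0.0145, 0.0144 and 0.0109. Median centring gave 2.65, 1.90, 2.22 and 2.34 in the same order, all called.

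A pair of Dcx probe sets under the filter read high on the input array. Probe set 1418140_at read 22.8 and 25.0 deiminated, 4.24 and 2.80 non-deiminated and 260.0 on the input array. With no filter it was lower than input by -3.24 (limma adjusted p = 0.0195) and -5.11 (adjusted p = 0.00219). Its deiminated arrays exceeded the non-deiminated ones by 1.87 log2 units (95% interval 0.11 to 3.63), with an adjusted p of 1. Probe set 1448974_at read 1.76 and 1.68 deiminated, 1.48 and 85.8 non-deiminated and 250.2 on the input array. N2 stood apart from the other bound arrays by a wide margin, and with no filter the differences from input were -5.43 (adjusted p = 0.00871) and -3.49 (adjusted p = 0.0569).

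Across the 18 member probe sets past the filter, 5 were called higher and 4 lower with the deiminated protein than in the input RNA. This is 27.8% higher and 22.2% lower, against a background of 24.9% higher and 26.6% lower among all 27022 probe sets tested, of which 51.5% were called in either direction. With the non-deiminated protein 5 were higher and 3 lower, 44.4% in all, against a background of 24.7%, 25.7% and 50.5%. The members' shares thus lay near those of the array as a whole. Both comparisons use the same input array. A member that passed the filter through 1 side alone had to differ, so these counts are a description. With no filter, 5 of the 22 were higher and 6 lower with the deiminated protein and 5 and 5 with the non-deiminated protein. Of all 45037 probe sets tested that way, 21261 and 20359 were called, and 30.8% and 31.8% of those calls were higher. The median difference from input was 0.41 and 0.36 among the members and -0.21 and -0.19 among all probe sets tested.

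Map1b and Map4 each had probe sets called in both directions, 2 of the 6 genes or 33.3%. Among genes with 2 or more probe sets past the filter the share was 19.4% with the deiminated and 18.6% with the non-deiminated protein, and among those with 3 or more 31.9% and 30.7%. In Map1b, 1450397_at entered through the bound arrays alone and 1421850_at through the input array alone, so the filter fixed both directions. Over all 22 probe sets the input array was below every bound array in 10, above every one in 9 and among them in 3. Of the 18 past the filter it was below in 10 and above in 6, or 55.6% and 33.3%, against 39.1% and 45.6% of all probe sets tested.

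Several member calls depended on how the arrays were brought to a common scale. The median difference of all probe sets from input was -0.21 and -0.19 as deposited, 0.51 and 0.48 after quantile normalisation, -0.24 and -0.26 after cyclic loess, and 1.29 and 1.23 after centring each array on its median. Member calls were 7 higher and 2 lower after quantile normalisation, 2 and 2 after cyclic loess, and 10 and 0 after median centring with the deiminated protein. With the non-deiminated protein they were 8 and 4, 3 and 3, and 11 and 1. With the deiminated protein, 13925 of all 27022 probe sets were called as deposited. The number was 15411 after quantile normalisation, 10803 after cyclic loess and 13414 after median centring. Of these calls 48.4%, 64.5%, 56.9% and 90.3% were higher. With the non-deiminated protein 13635, 15247, 10518 and 12955 were called in the same order, of which 49%, 64.6%, 57.2% and 90.5% were higher. Only Mapt 1424719_a_at and Map1b 1450397_at were called higher in both comparisons under all 4 of these scalings. Both had an input value under the filter limit on the deposited scale. They entered the test there only through their bound signals and had to be higher. For the Mapt probe set the deiminated difference exceeded the median of all probe sets by 5.39, 5.48, 4.39 and 5.39 in turn, and for the Map1b probe set by 3.97, 4.11, 3.42 and 3.97. Scaling to the hybridisation controls moved the median of all probe sets to 4.32 and 4.38, and limma called no probe set, while 7163 and 7399 of the 27022 had an unadjusted p under 0.05. The Mapt and Map1b probe sets then stood 4.001 and 2.87 above that median with the deiminated protein, each with a limma adjusted p of 0.187.

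Deimination of the protein gave no called difference in any member. Of the 18 probe sets, 0 passed and 0 had an unadjusted p under 0.05, and the limma adjusted p was 0.9999 for each. Among all 27022 tested, 0 passed, a background of 0%, and 356 or 1.32% had an unadjusted p under 0.05. The estimates ran from -0.49 for Map2 1440699_at to 0.67 for Dcx 1418139_at, with 8 above 0 and 10 below as fitted on all 4 bound arrays, and a median of -0.18 against -0.01 for all probe sets. For Map1a the estimates were -0.22 and -0.18, for Map1b -0.23 and 0.20, and for Map2 0.36, 0.19 and -0.49, each in the order in which the probe sets were described. For Map4 they were 0.16 (1416091_at), 0.16 (1439467_at), -0.40 (1437855_at), -0.23 (1416092_a_at) and 0.30 (1443702_at), and for Dcx 0.67 and -0.19. Mapt 1417885_at was at -0.20. Within a gene the signs were mixed, except in Map1a. Leaving out 1 bound array changed the sign of the estimate in 9 of the 18. Each such fit also unbalances the split of D1 and N1 from D2 and N2 between the proteins. Its part in these estimates was not tested. Dcx 1418139_at was 1.31 without D1 and 0.024 without D2. Map4 1437855_at was -0.93 without N1 and 0.12 without N2. Map2 1440699_at was -0.090 without N1 and -0.88 without N2. The adjusted p stayed above the threshold for every member in these fits. The 95% interval for Mapt 1424719_a_at was -0.91 to 0.42, that for Map1b 1450397_at -1.02 to 0.56 and that for Map2 1434194_at -0.32 to 1.03. For 7 of the 18, or 38.9%, the whole interval lay within 2-fold in either direction, against 24.2% of all probe sets, and for all 18 it lay within 4-fold, against 83.9%. A p that misses the threshold does not show that the proteins bound these RNAs alike.

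In 6 of the 18, or 33.3%, the deiminated and non-deiminated arrays did not overlap, against a background of 24.1%. Map2 1434194_at and Map4 1416091_at were the ones with the higher deiminated values. Map1a 1460566_at, Map4 1416092_a_at, Mapt 1424718_at and Mapt 1424719_a_at had the lower. Directions thus differed between and within genes. Of the 3 Mapt probe sets called higher than input, 2 were lower and 1 higher with the deiminated protein, at -0.30, -0.25 and 0.08.

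Other genes of microtubule regulation were described from 8 lists, with the brightest probe set standing for each gene. Of 83 listed genes 77 were measured, and 32 were higher and 11 lower than input with the deiminated protein, where 29.5% of all 13055 genes were higher and 22.4% lower. With the non-deiminated protein 33 were higher and 6 lower, against 29.2% and 21.3%. The median difference of the 77 genes was 0.77 and 0.81, and that of all genes 0.11 and 0.12. Of the genes called higher, 8 of 32 and 9 of 33 had an input value under the filter limit of 4.89, so they entered the test only through their bound signals and had to be higher. Of those called lower, 1 of 11 and 0 of 6 had a bound mean under that limit. Between the proteins, limma called 0 of 77, and 0 had an unadjusted p under 0.05.

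Other structural microtubule-associated proteins had 7 of 12 genes higher and 0 lower with the deiminated protein and 9 and 0 with the non-deiminated protein, with medians of 1.78 and 1.68. Map9, a protein of the spindle and microtubule lattice, was 3.71 and 3.46 higher. Map1s, the short relative of Map1a and Map1b, was 3.42 and 3.27 higher, with an input value of 4.66 that lay under the filter limit. Doublecortin relatives and lissencephaly partners had 3 of 7 higher and 0 lower with the deiminated protein and 2 and 0 with the non-deiminated protein, with medians of 1.10 and 0.31. Dclk1, a kinase with doublecortin domains, was 2.12 and 1.995 higher, and both calls were lost after cyclic loess, at 0.81 and 0.71 (limma adjusted p = 0.105 and 0.151). Among the LC3 relatives, which include a light chain partner of Map1a and Map1b, 3 of 5 and 2 of 5 were higher and 0 lower, with medians of 1.30 and 1.19. Gabarap, an autophagy protein, was 4.37 and 4.57 higher, with an input value of 4.84, also under the limit. Stathmins, which sequester tubulin dimers, had 2 of 4 higher and 0 lower in each comparison, with medians of 0.37 and 0.16 and Stmn4 at 2.88 and 2.73. Stmn1 and Stmn3, named here after their values were seen, were below input and not called. Stmn1 was at -1.56 and -1.64 and Stmn3 at -0.82 and -0.91.

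Proteins of microtubule ends moved both ways, with 7 of 14 higher and 4 lower with the deiminated protein and 7 and 2 with the non-deiminated protein, at medians of 1.25 and 1.29. Nav3 and Nav1, neuron navigators that bind growing ends, were 3.88 and 3.85 higher with the deiminated protein and 3.94 and 3.72 with the non-deiminated protein. The third navigator, Nav2, named here after its values were seen, was lower at -1.96 and -2.36 (limma adjusted p = 0.0243 and 0.0109). Clip3 was 3.71 and 3.88 higher. The input values of Nav3 and Clip3, 4.07 and 4.87, were under the filter limit. Severing enzymes had 2 of 4 higher and 0 lower in each, with medians of 1.48 and 0.90 and Spast, the enzyme spastin, at 3.65 and 3.74. Kinases and phosphatases that act on these proteins had 5 of 21 higher and 4 lower with the deiminated protein and 5 and 3 with the non-deiminated protein, with medians of 0.09 and 0.14. Ppp2r2a, a regulatory subunit of the phosphatase PP2A, was 2.93 and 3.14 higher, whereas Cdk5r2, an activator of the tau kinase Cdk5, was lower at -2.47 and -2.51. Brsk1, a kinase of neuronal polarity, was lower at -2.14 and -1.71. Median centring ended the calls on both genes, with -0.98 and -1.10 for Cdk5r2 and -0.64 and -0.29 for Brsk1. Enzymes of tubulin tails had 3 of 10 higher and 3 lower, and 4 and 1, with medians of 0.69 and 0.55, the polyglutamylase Ttll7 at 2.89 and 2.70 and the deglutamylase Agtpbp1 at 1.77 and 2.11. After cyclic loess Agtpbp1 was 0.39 and 0.76 and no longer called. Cyclic loess called 10803 and 10518 of all 27022 probe sets, 56.9% and 57.2% of these higher. Median centring called 13414 and 12955, with 90.3% and 90.5% higher. For the pathway genes the counts were 21 higher after cyclic loess in each comparison, and after median centring 53 and 51 higher and 1 lower in each. The lower count with the deiminated protein was 5 without D1 and 6 without D2, and with the non-deiminated protein it was 12 without N2.

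The genes whose profile over the 5 arrays was most like that of each member were found by the distance between centred log2 signals, among 13049 other genes. For Mapt, by its brightest probe set 1424718_at, they were Rnf227, Arpc1a and Ptp4a2, at distances of 0.125, 0.143 and 0.151. For Map1b, by 1450397_at, they were Ndrg1, Gpr6 and Rab24 at 0.153, 0.188 and 0.237. Map2, by 1434194_at, was closest to Mul1, Wnt9a and Arrdc3 at 0.123, 0.123 and 0.131, and Map1a, by 1460566_at, to Rimkla, Selplg and Hspa4l at 0.0604, 0.0989 and 0.110. Map4, by 1437855_at, was closest to Med19, Dmxl1 and Tent5c at 0.173, 0.228 and 0.255. Dcx, by 1418139_at, was closest to Setmar, Riok1 and Ccdc58 at 0.226, 0.264 and 0.287. Within a distance of 0.5 lay 609 genes for Map1a, 404 for Mapt, 368 for Map2, 92 for Map4, 61 for Map1b and 8 for Dcx, whose profile is set by the single high value on D2.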

How the data were processed

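The deposited values are MAS5 signal intensity per probe set on a linear scale, per the submitters' processing notes, which give no version. The mean after trimming 2% at each end was 150 on every array. Detection calls were not used here. Signals were put on a log2 scale after adding a pseudocount of 4.18, their overall median (41.8) over 10. Of 45101 probe sets, 64 were controls. Those whose mean log2 signal reached the 40th percentile (4.89) were tested, 27022 in all, of which 18 of 22 members. The test was limma 3.58.1 (R 4.3.3; lmFit, eBayes with a trend), with 1 mean per group, 2 residual and 10.91 prior degrees of freedom, and Benjamini-Hochberg adjustment over all probe sets tested; called means an adjusted p under 0.05. The model was first tried on simulated data, for the comparison between the proteins alone and not for those with the input array.

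Gene names come from GEO's platform annotation, where 34945 probe sets had 1 symbol, 932 several and 9160 none. A gene of the 8 lists is represented by its brightest probe set, and up to 4 per list were eligible to be named, those with the largest moderated t among called genes without overlap. The 3 most alike genes were taken for each member. The members and lists were chosen with earlier results of these data known. The number of arrays limits the precision. Replicates were numbered in sample order, and the model pairs no arrays, although hybridisation control levels set D1 and N1 apart from D2 and N2. Alternatives covered the pseudocount (1.05 and 16.7), the filter, the scaling, the variance model, array weights, a block for the protein's name and leaving out each bound array.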

Additional observations from a re-analysis of the deposited data

How the results depend on the processing

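The labels give the arrays no shared replicate numbers, so none were paired by number. The protein's name in the titles ties D1 with N2 and D2 with N1. A block for it left 8 members called with the deiminated protein against input, 8 with the non-deiminated protein and 0 between the proteins. That block crosses the split of D1 and N1 from D2 and N2 in hybridisation control level, for which no block was fitted. Of the members, 9 were called with the deiminated protein against input and 8 with the non-deiminated protein. The first count became 4 after cyclic loess, and both became 0 after scaling to the hybridisation controls. Leaving out each bound array gave 6 to 11 and 8 to 9, and 0 members between the proteins. Cyclic loess turned Mapt 1424718_at to -0.0224, Pafah1b1 to -0.0933 and Map1lc3b to -0.314 with the deiminated protein. With the non-deiminated protein it turned Map2 1434194_at to -1.14, Mapt 1455028_at to -0.000248 and Ttl to -0.195. Quantile normalisation turned that Map2 value to -0.904, and median centring turned Map1a 1460566_at to 1.31. Scaling to the hybridisation controls raised Map2 1421328_at to 3.02 and 2.88, Map4 1439467_at to 2.47 and 2.38, Cdk5r2 to 2.94 and 2.93 and Brsk1 to 3.20 and 3.67. With the deiminated protein it raised Map2 1440699_at to 3.12 and Ttll11 to 3.71. Under that scaling all 17 member differences tested were positive with either protein, and 0 were called. The median over a gene's probe sets made Map2 -1.97 and -1.80, both called, and took Map1b from 3.76 and 3.99 to 0.0505 and 0.0664, with limma adjusted p of 0.943 and 0.923. The cause of these changes was not tested. Between the proteins, other probe sets were called without N1 or without N2. Those fits hold a single non-deiminated array and unbalance the split of D1 and N1 from D2 and N2 between the proteins.

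The input RNA was measured on 1 array, so its own spread is unknown. Low signals limit the 4 members under the filter, and Map1b 1450397_at and Mapt 1424719_a_at have dim input values: the pseudocount moved the first between 3.26 and 3.93 and the second between 4.53 and 5.41 with the deiminated protein.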
